A study of Mus musculus with 6 samples.

Results

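Uhrf1, Hells and the DNA methyltransferases Dnmt1, Dnmt3a and Dnmt3b are the genes that copy and lay down DNA methylation, and their transcripts were followed in mouse hepatocytes sorted by DNA content. They are 5 of the 12393 genes that the array measured with a symbol of their own, and they were read by 12 of 22626 probe sets, each annotated to that 1 symbol. The genes were chosen by measured values of the same comparison: Uhrf1 and Hells had stood among the genes with the smallest p-values on these arrays, and the methyltransferases complete the set by function. Differences between the fractions are therefore given below as a description of the members, without a test of any one of them. Tetraploid hepatocytes, which hold a doubled genome, were set against diploid hepatocytes, with 3 arrays in each fraction. All cells came from livers of wild type C57BL/6 mice aged 3 weeks, were stained with Hoechst 33342, a dye that binds DNA in living cells, and gave RNA directly after sorting. A sort on DNA content alone places diploid cells that have finished copying their DNA in the tetraploid fraction, which limits it as a model of stable tetraploidy. The labels call the replicates biological without naming separate animals, so the spread between arrays may be technical in part.

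In mammals a methyl group sits on the cytosine of most CpG dinucleotides, on both strands. Copying the DNA leaves the new strand bare, and maintenance restores the mark: Uhrf1 binds the half-methylated site and ubiquitinates histone H3, Dnmt1 docks there and methylates the new strand, and Hells, a remodelling ATPase, opens nucleosomes for it. Dnmt3a and Dnmt3b instead methylate sites that carry no mark, and do so outside S phase as well. Dividing cells, such as those of the growing liver, need the maintenance enzymes each time they copy their genome.

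The start regions of the 5 genes were searched for the E2F motif, since E2F factors switch on many genes of S phase, in the forms TTTGGCGC, TTTGCCGC, TTTCGCGC and TTTCCCGC on both strands. The windows are those of RefSeq on GRCm38.p6 and run from 250 bases before to 50 bases after each listed transcript start. They number 1 each for Hells and Dnmt3b, 2 for Uhrf1 and 3 each for Dnmt1 and Dnmt3a. A motif stood in 1 window each of Uhrf1, Hells and Dnmt1, and these letters were in none of the windows of Dnmt3a and Dnmt3b. Of all 32851 windows in the table, 2.26% held a motif, and of the 3837 windows with at least 30 CpG dinucleotides, a limit set after the members' counts were seen, 5.06% did. The windows with a motif had 33 CpG dinucleotides in Uhrf1, 34 in Hells and 33 in Dnmt1. The sites are shown to place the motif in these start regions, and whether it bears on the transcript levels was not tested. Each is given 5′ to 3′ on the strand of its gene, with the motif in capitals (in Dnmt1 the capitals are the motif read on the opposite strand).
Uhrf1, chr17:56304117-56304146, plus strand, -185 to -178 from the start: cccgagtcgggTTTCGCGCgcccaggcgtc
Hells, chr19:38930917-38930946, plus strand, -62 to -55 from the start: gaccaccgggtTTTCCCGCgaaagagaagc
Dnmt1, chr9:20952824-20952853, minus strand, -219 to -212 from the start: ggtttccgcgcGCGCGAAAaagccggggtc

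The same Dnmt1 window held a further form, TTTGGCGC, at 33 to 40 bases after the start. The Uhrf1 and Dnmt1 windows lie downstream of another listed start of the same gene, whereas Hells has a single listed start. All 250 bases before that start, at chr19:38930740-38930989 on the plus strand, are shown with the E2F motif in capitals to give its setting.
Hells: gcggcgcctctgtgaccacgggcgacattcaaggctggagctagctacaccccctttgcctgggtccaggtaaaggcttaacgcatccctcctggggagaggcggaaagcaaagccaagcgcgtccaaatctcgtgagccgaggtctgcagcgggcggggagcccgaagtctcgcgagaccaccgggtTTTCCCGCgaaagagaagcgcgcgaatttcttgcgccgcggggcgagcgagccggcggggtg

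Uhrf1 was lower in tetraploid than in diploid cells on both of its probe sets. The brighter one, 1415810_at, read log2 intensities of 7.24, 6.81 and 6.93 on the tetraploid arrays, against 8.93, 8.33 and 8.35 on the diploid arrays. The fractions did not overlap, and replicate 1 was the highest array of each. Means were 6.99 ± 0.22 in tetraploid and 8.54 ± 0.34 in diploid cells (SD, n = 3 each), a log2 difference, tetraploid minus diploid, of -1.55 ± 0.18 (SE), or a 2.92-fold lower level. Of the 22626 probe sets, 0 had a lower difference. The second Uhrf1 probe set, 1415811_at, read 6.39, 5.98 and 5.92 in tetraploid cells, against 6.93, 6.56 and 6.67 in diploid cells. These values did not overlap either, but its difference of -0.62 ± 0.15 (SE) was much smaller than that of the brighter probe set. The 2 probe sets read the same transcript record, so they are not independent measurements of the gene. These intensities come from RNA pooled over many cells, so fewer cells with a transcript and less of it per cell cannot be told apart.

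Hells was measured by 1 probe set, 1417541_at, with log2 intensities of 7.91, 7.21 and 7.32 in tetraploid cells, against 8.73, 8.74 and 8.77 in diploid cells. The diploid arrays lay almost on one level, and every tetraploid array was below them. The means were 7.48 ± 0.38 in tetraploid and 8.75 ± 0.02 in diploid cells (SD, n = 3 each), and the difference was -1.27 ± 0.17 (SE), a 2.40-fold lower level. Tetraploid replicate 1 stood well above the other 2 tetraploid arrays, and without it the difference was -1.48. Without tetraploid replicate 2 the difference was -1.13.

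Dnmt1, the maintenance methyltransferase, had a lower mean in tetraploid cells on both probe sets. The brighter one, 1422946_a_at, read 8.68, 8.25 and 8.19 in tetraploid cells, against 8.79, 8.80 and 8.60 in diploid cells. Here the fractions overlapped, because tetraploid replicate 1 was above diploid replicate 3. Its difference was -0.36 ± 0.14 (SE). With 1 array left out it ran from -0.51, without tetraploid replicate 1, to -0.27, without tetraploid replicate 3. The dimmer probe set, 1435122_x_at, read 7.67, 7.42 and 7.55 in tetraploid cells, against 8.42, 8.02 and 8.16 in diploid cells, with no overlap. It differed by -0.65 ± 0.12 (SE), a 1.57-fold lower level. The suffix of its name marks probes that can also bind other transcripts, so this value is less certain as to the gene.

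Dnmt3a, one of the de novo enzymes, had nearly the same level in both fractions. Its 5 probe sets gave log2 differences from 0.02 to 0.14, all with a slightly higher mean in tetraploid cells. The brightest, 1423066_at, read 7.86, 8.02 and 7.75 in tetraploid cells, against 7.82, 7.70 and 7.84 in diploid cells. The fractions overlapped, and the difference of 0.09 ± 0.09 (SE) had a 95% interval from -0.13 to 0.30. The fractions did not overlap for 1423063_at and 1423064_at. The first read 7.54, 7.54 and 7.54 in tetraploid cells, against 7.45, 7.40 and 7.53 in diploid cells, a difference of 0.08 ± 0.07 (SE). The other read 6.66, 6.72 and 6.69 in tetraploid cells, against 6.55, 6.48 and 6.63 in diploid cells, and differed by 0.14 ± 0.08 (SE), the largest difference among the Dnmt3a probe sets. The remaining ones, 1423065_at and 1460324_at, overlapped between fractions and differed by 0.02 ± 0.09 and 0.12 ± 0.09 (SE). The sign of the smallest, 1423065_at, turned under 3 of the 10 alternatives that could move it, with a lowest value of -0.06.

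Dnmt3b, the other de novo enzyme, also had overlapping fractions. Its brighter probe set, 1449052_a_at, read 7.12, 6.80 and 7.07 in tetraploid cells, against 6.99, 6.93 and 6.91 in diploid cells, a difference of 0.05 ± 0.10 (SE) with a 95% interval from -0.18 to 0.28. The dimmer one, 1418351_a_at, read 6.05, 5.98 and 6.24 in tetraploid cells, against 6.06, 6.14 and 5.85 in diploid cells. It differed by 0.07 ± 0.11 (SE), with an interval from -0.17 to 0.32.

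**Figure D1:**
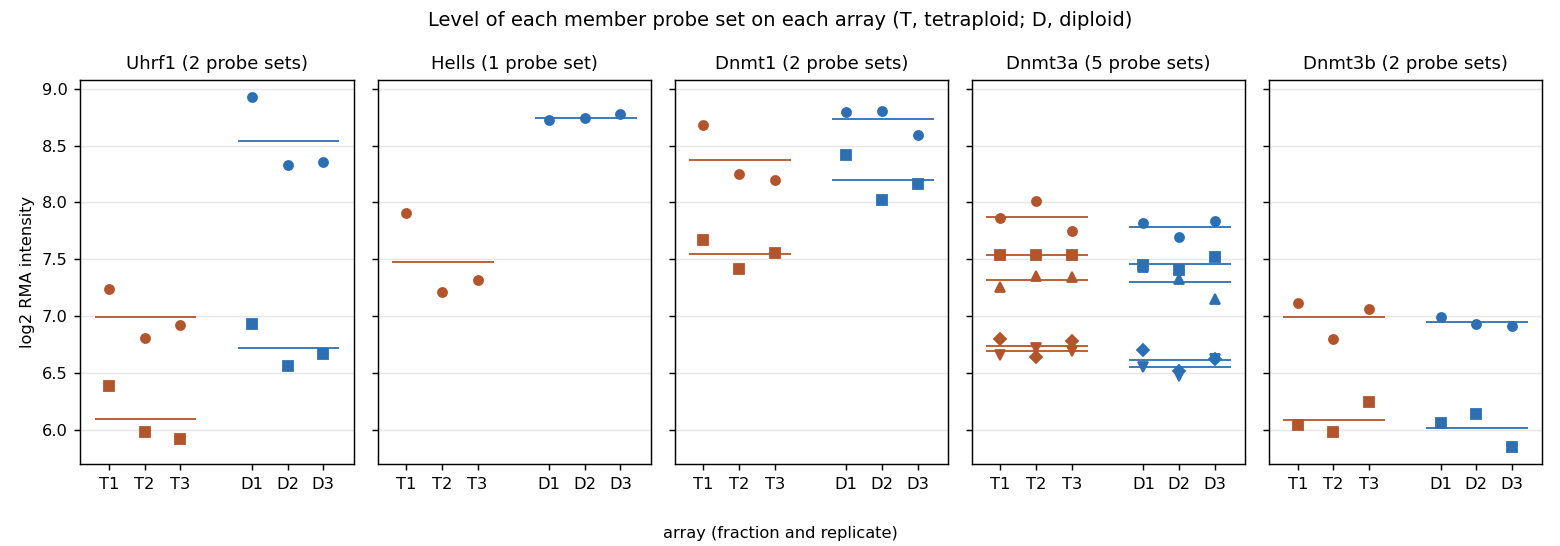
Log2 RMA intensity (vertical axis) of every member probe set on each array, with tetraploid replicates T1 to T3 in orange left of diploid replicates D1 to D3 in blue; horizontal lines are means of 3 arrays, and marker shapes separate the probe sets of a gene (circle, square, triangle, diamond, inverted triangle from brightest to dimmest). The brighter Uhrf1 probe set lies between 6.81 and 7.24 in tetraploid and between 8.33 and 8.93 in diploid cells, while the Dnmt3a and Dnmt3b lines stay almost level.

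All 5 probe sets of Uhrf1, Hells and Dnmt1 had a lower mean in tetraploid cells, and all 7 of Dnmt3a and Dnmt3b a higher one by at most 0.14. The 95% intervals of these 7 all include 0, and the sign of 3 of them, 1 of Dnmt3a and both of Dnmt3b, turned under at least 1 alternative. The fractions did not overlap for 4 member probe sets that were lower in tetraploid cells, where 6.77% of all probe sets were lower without overlap. They did not overlap for the 2 Dnmt3a probe sets that were higher, where 5.95% of all probe sets were higher without overlap. Since the members were picked with this contrast in view, nothing is read from these counts. By limma 0 of 22626 probe sets (0%) passed an adjusted p of 0.05, members included, and the smallest adjusted p was 0.206, while 1561 probe sets had an unadjusted p under 0.05. Without tetraploid replicate 1 the count was 1, the Hells probe set. Hells was chosen by its small p-value on these arrays, and the array left out was its farthest from the fraction's mean, so this is no test of it. Another setting that changed the count is given with the other alternatives below. None of the 12 member probe sets was among the dimmest 25% of the array, which lay below a log2 intensity of 4.82.

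**Figure D2:**
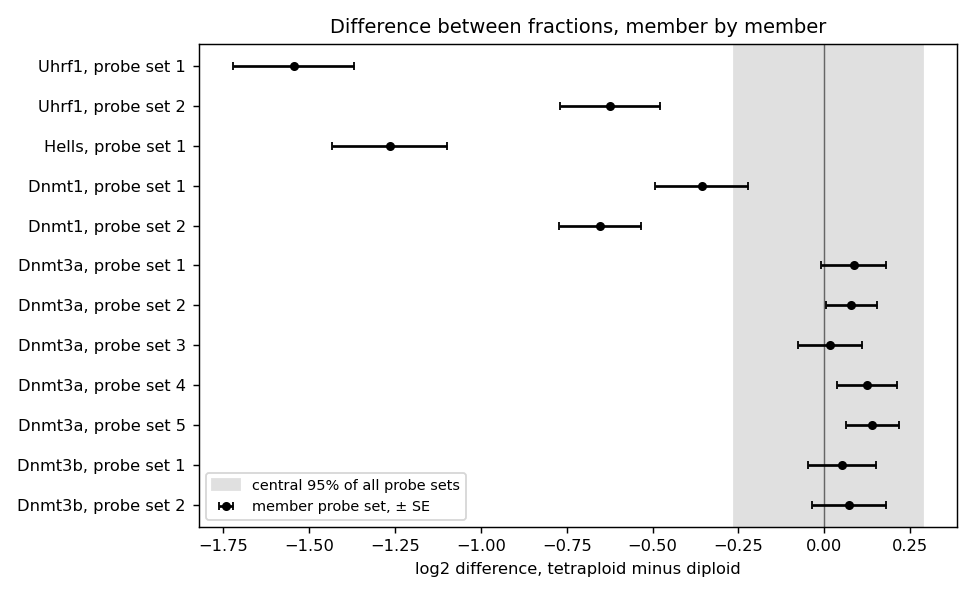
Log2 difference, tetraploid minus diploid (horizontal axis), of the 12 member probe sets, numbered within a gene from brightest to dimmest, with bars for the SE from the limma fit; the grey band holds the central 95% of all 22626 probe sets, from -0.26 to 0.29. The probe sets of Uhrf1, Hells and Dnmt1 lie left of the band, from -1.55 to -0.36, and those of Dnmt3a and Dnmt3b inside it.

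Arrays of one fraction were not alike in the maintenance genes. Tetraploid replicate 1 was the highest tetraploid array on all 5 probe sets of Uhrf1, Hells and Dnmt1, by 0.25, 0.29, 0.43, 0.30 and 0.13 above the fraction's mean. Diploid replicate 1 was the highest diploid array on both Uhrf1 probe sets and on the dimmer Dnmt1 probe set, by 0.39, 0.21 and 0.22. Hells did not share this, with diploid replicate 1 at -0.02 from its mean. A list of 22 genes of the G1/S transition and of DNA replication was likewise highest on replicate 1 of each fraction: the mean of its 20 measured genes, each centred over the 6 arrays, was -0.20, -0.41 and -0.53 on the tetraploid arrays, against 0.57, 0.20 and 0.36 on the diploid arrays.

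The genes with the profile nearest to a member were found by the root mean square difference between log2 values centred over the 6 arrays, taking the brightest probe set of every gene. Nearest to Uhrf1 were Mcm5, at 0.12, Cdc6, at 0.18, and Mcm4, at 0.22. Mcm4 and Mcm5 are subunits of the helicase that unwinds DNA ahead of the replication fork, and Cdc6 loads it. Mcm5 read 6.59, 5.92 and 6.28 in tetraploid cells, against 8.07, 7.37 and 7.57 in diploid cells. Nearest to Hells were Dtl, at 0.15, which marks the licensing factor Cdt1 for destruction, the checkpoint kinase gene Chek1, at 0.17, and again Cdc6, at 0.19. Hells itself lay 0.26 from Uhrf1. Around the flatter Dnmt1 profile the nearest genes were Cd160, a receptor of natural killer and T cells, at 0.03, the neuropeptide gene Cartpt, at 0.06, and the ephrin gene Efna3, at 0.07. Of these, Cd160 read 6.23, 5.87 and 5.77 in tetraploid cells, against 6.38, 6.35 and 6.13 in diploid cells. Efna3, at a mean log2 intensity of 4.43, was below the dim limit of 4.82, and Cartpt, at 4.98, was close to it. Dnmt1 lay 0.47 from Hells and 0.62 from Uhrf1, but nearer to the de novo enzymes, 0.30 from Dnmt3a and 0.25 from Dnmt3b. Dnmt3a and Dnmt3b lay 0.18 from each other. These distances describe 6 arrays and grow with the size of a change. They include the contrast by which Uhrf1 and Hells were chosen, so nearness to other genes with large differences is no separate finding.

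**Figure D3:**
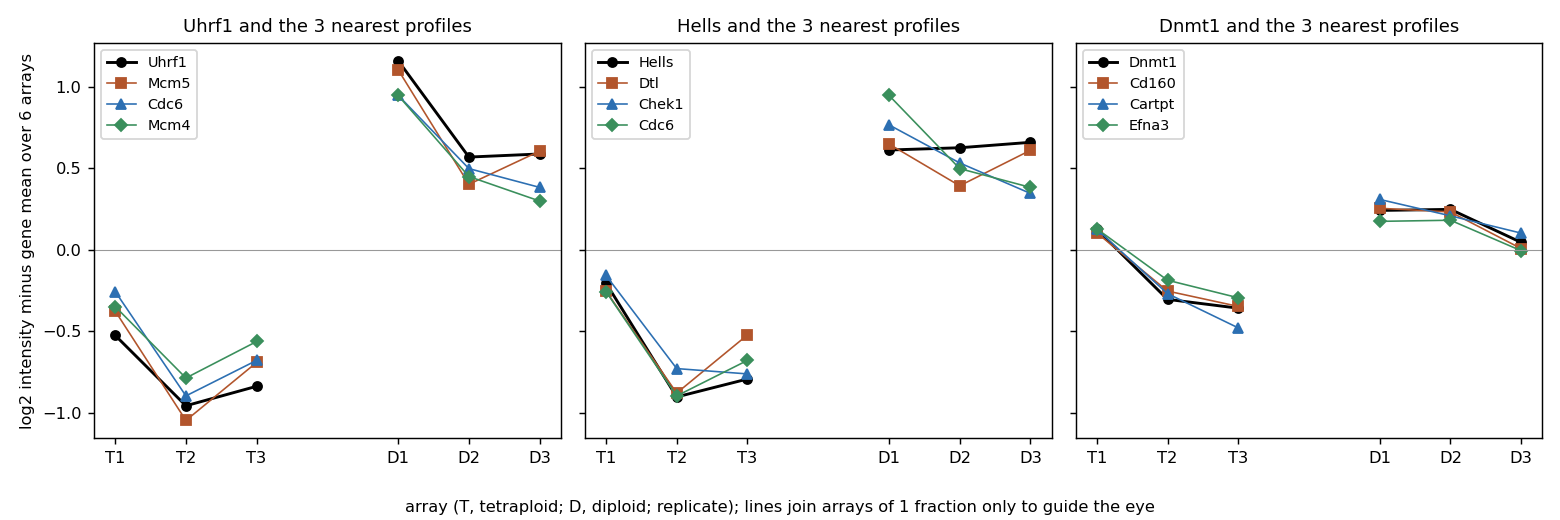
Log2 intensity minus the gene's mean over 6 arrays (vertical axis) for Uhrf1, Hells and Dnmt1 (black circles) and the 3 genes nearest to each, on tetraploid arrays T1 to T3 and diploid arrays D1 to D3; lines only guide the eye, as replicates have no order. Uhrf1 and Mcm5 run 0.12 apart on average, and the Dnmt1 panel shows much smaller swings.

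The genes that work beside the members were described from lists written for this comparison, each gene by its brightest probe set. In all of them 0 genes passed the adjusted threshold in either direction. Over all 12393 genes the median log2 difference was -0.02, and 7.43% of genes were lower and 4.37% higher in tetraploid cells without overlap. Of 12 partners of maintenance, 10 were measured, with a median of -0.05, and 4 were lower without overlap, namely Pcna, Lig1, Cdca7 and Cdca7l, the last chosen after its values were seen. Pcna, the clamp that tethers Dnmt1 to the fork, read 11.67, 11.54 and 11.23 in tetraploid cells, against 12.65, 12.01 and 12.30 in diploid cells. Its difference was -0.84 ± 0.17 (SE). Lig1, the ligase whose methylated form binds Uhrf1, read 7.79, 7.81 and 7.34 in tetraploid cells, against 8.46, 8.26 and 8.60 in diploid cells, and differed by -0.79 ± 0.15 (SE). Both are replication enzymes, and Pcna is on the G1/S list too. Cdca7, the partner that activates Hells on chromatin, read 5.81, 5.96 and 5.85 in tetraploid cells, against 6.17, 6.07 and 6.20 in diploid cells. It differed by -0.27 ± 0.08 (SE), and Cdca7l, its paralog, by -0.49 ± 0.10 (SE). Of the 11 partners with a start window, Cdca7 and Lig1 held the E2F motif.

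Other partners were measured too. Usp7, which removes ubiquitin from Uhrf1 and Dnmt1, differed by -0.07 ± 0.09, the histone H3K9 methyltransferase gene Ehmt2 by 0.13 ± 0.09 and the corepressor gene Trim28 by 0.04 ± 0.08 (SE, n = 3 each). A second, dimmer Ehmt2 probe set differed by -0.16, and one of Usp7 by 0.11. Uhrf2, the paralog of Uhrf1, was not analysed here for lack of a probe set with 1 symbol. Among 5 measured cofactors of de novo methylation the median was 0.04 and 0 genes were without overlap. Dnmt3l, the inactive relative that stimulates Dnmt3a and Dnmt3b in germ cells, read 5.38, 5.21 and 5.34 in tetraploid cells, against 5.29, 5.23 and 5.09 in diploid cells, and differed by 0.11 ± 0.09 (SE), and Nsd1, an H3K36 methyltransferase, was below the dim limit.

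Removal and reading of the mark were measured in part. Of 9 demethylation genes 5 had a probe set with 1 symbol, and Tet2, Tet3, Tdg and Smug1 did not. Of the 5, 3 had a lower and 2 a higher mean in tetraploid cells, with a median of -0.15. The largest difference was that of the stress gene Gadd45a, named after its value was seen, at 0.41 ± 0.33 (SE) with overlapping fractions. Tet1, which oxidises the methyl group, was among the dimmest 25% of probe sets, at a mean of 4.69 ± 0.04 in tetraploid and 4.83 ± 0.17 in diploid cells (SD, n = 3 each), without overlap. Mbd4, a glycosylase that repairs deaminated methylcytosine, read 5.50, 5.43 and 5.21 in tetraploid cells, against 5.90, 5.78 and 5.50 in diploid cells, with a tie to 2 decimals between the fractions. Its difference was -0.34 ± 0.12 (SE). The 12 measured readers of methylated CpG and their corepressors had a median of 0.05, and only Gatad2b, a subunit of the NuRD complex named after its value was seen, was higher without overlap, at 0.31 ± 0.11 (SE). The binding proteins Mbd1, Mbd2 and Mbd3 differed by -0.07 ± 0.11, -0.02 ± 0.08 and 0.03 ± 0.12 (SE). Zbtb33, a zinc finger reader of methylated DNA, was dim and differed by 0.14 ± 0.10 (SE). The 8 measured genes of H3K9 methylation, a mark that Uhrf1 also reads, had a median of 0.06 and 0 without overlap, with Setdb1 at -0.04 ± 0.08 and the heterochromatin protein gene Cbx5 at -0.06 ± 0.10 (SE). Over all 20 probe sets of these genes the median was -0.06, the opposite sign, and the 5 probe sets of Cbx5 ranged from -0.23 to -0.06.

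The methyl donor of all these enzymes, S-adenosylmethionine, is made and used in large amounts by hepatocytes. Of 18 measured genes of its cycle, 12 were lower and 6 higher on average in tetraploid cells, with a median of -0.02, and 4 were lower and 3 higher without overlap. Mat1a, which makes the donor in adult liver, read 14.12, 14.13 and 14.18 in tetraploid cells, against 14.09, 14.17 and 14.08 in diploid cells. Gnmt, which uses up its excess, had means of 14.34 ± 0.02 in tetraploid and 14.43 ± 0.07 in diploid cells (SD, n = 3 each), a difference of -0.08 ± 0.08 (SE). Ahcy, which clears the product S-adenosylhomocysteine, differed by less than 0.01 in size, and Bhmt, which remakes methionine, by -0.03 ± 0.07 (SE). The other genes without overlap, named after their values were seen, were Ahcyl1, Dmgdh and Shmt2, which were lower, and Mat2b, Mtrr and Chdh, which were higher, all by at most 0.20. The largest difference of the list was that of Nnmt, also named after its value was seen, at -0.49 ± 0.21 (SE) with overlapping fractions.

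The G1/S and replication genes had the lowest median of the 10 lists plotted, -0.73. In this list 19 of 20 genes were lower without overlap, against 7.43% of all genes. The lists were written with earlier results of these data known, so nothing is read from this count. The exception was Tyms, which is dim and differed by 0.01. Among the members, the brighter Uhrf1 probe set at -1.55 and Hells at -1.27 lay beyond this median, whereas the dimmer Uhrf1 probe set at -0.62 and both Dnmt1 probe sets, at -0.36 and -0.65, lay short of it. Of the 18 listed replication genes with a start window, 7 held the E2F motif, where 2.6% of all genes with a window did. E2F factors switch on many genes of S phase, so a higher share in such a list is no separate finding. Whether the motif bears on the differences of these genes was not tested. Among windows with at least 30 CpG dinucleotides the share was 5.06%, counted per window, and the list was not matched for CpG content. The motif also stood in 2 of 10 genes of H3K9 methylation, 2 of 17 imprinted genes, 2 of 15 germline genes and 1 of 12 genes of G2 and mitosis. It stood in 0 genes of the lists of de novo cofactors, demethylation, readers and the methyl donor cycle. By contrast the 15 genes of G2 and mitosis had a median of -0.12 and 0 without overlap, and Mki67, a marker of cycling cells in every phase after early G1, read 8.94, 9.20 and 8.77 in tetraploid cells, against 9.11, 8.76 and 9.39 in diploid cells.

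**Figure D4:**
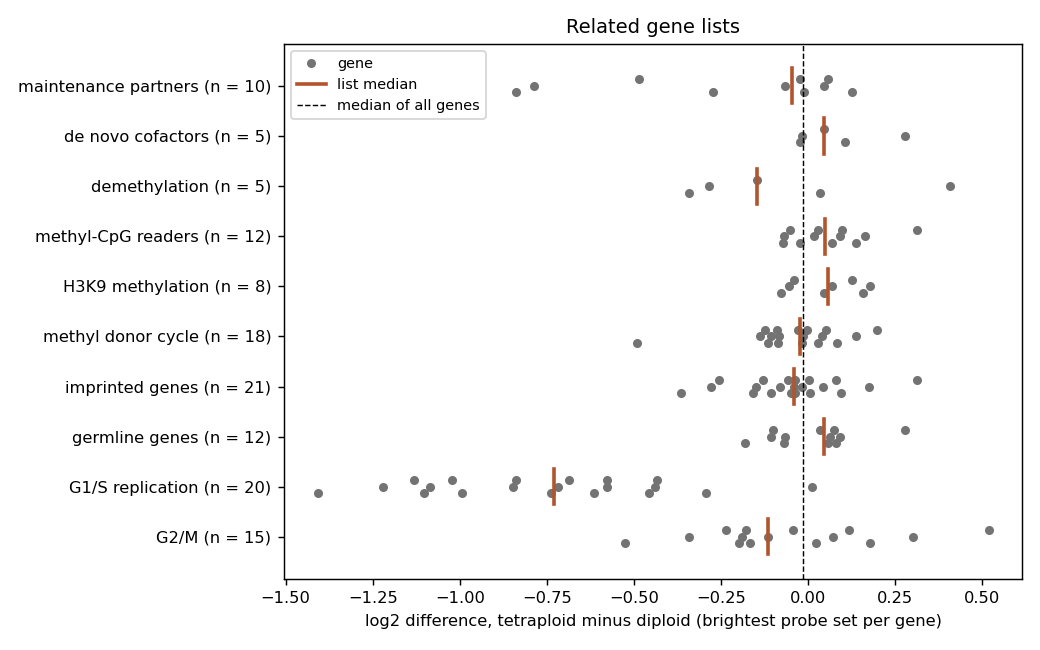
Log2 difference, tetraploid minus diploid (horizontal axis), of each measured gene (grey points) in 10 lists, with the list's median as an orange bar and the median of all genes, -0.02, as a dashed line. The replication list is shifted to a median of -0.73, a few maintenance partners reach down to -0.84, and the medians of the other lists lie between -0.15 and 0.06. All 10 lists were written with earlier results of these data known.

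By their markers the cells matched their label as hepatocytes, whereas no marker of ploidy was examined. The 8 hepatocyte markers, among them albumin (Alb) and transthyretin (Ttr), had levels from 12.29 to 15.58 on all arrays and a median difference of -0.01. Alb had an SD of 0 over the tetraploid arrays, so differences at such high intensities may be compressed and say little about the fractions. Markers of lymphocytes differed in the direction of the maintenance genes: all 4 measured ones were lower on average in tetraploid cells, and their summed linear intensity was 124 to 136 on the tetraploid arrays, against 145 to 157 on the diploid arrays. Cd79a, of B cells, and Cd3e, of T cells, were lower without overlap, with log2 differences of -0.42 and -0.21, while Ptprc, found on all leukocytes, and Nkg7 were dim, Ptprc at 4.22 in tetraploid and 4.24 in diploid cells. Of 4 measured cholangiocyte markers 3 were lower, and Epcam, which is dim, was so without overlap. Their summed intensity was 149 to 153 in tetraploid and 152 to 172 in diploid cells. Endothelial markers summed to 580 to 699 in tetraploid and 516 to 600 in diploid cells. On average 2 were lower and 3 higher in tetraploid cells, with a median difference of 0.06 and 0 without overlap. Clec4g, the brightest and so the heaviest in the sum, was higher, at 0.34, and Stab2, the next brightest, lower, at -0.24. Over all 7 endothelial probe sets the median was -0.01. Stellate cell markers summed to 606 to 647 in tetraploid and 585 to 632 in diploid cells. Of these 5, 4 were lower on average in tetraploid cells, with a median difference of -0.14, and Pdgfrb was lower without overlap, at -0.24. Reln, by far the brightest and so the heaviest in the sum, was higher without overlap, at 0.12. Macrophage markers summed to 224 to 269 in tetraploid and 255 to 276 in diploid cells, with 4 of 5 lower and a median of -0.09. Cd68, which is dim, was higher without overlap, at 0.25. Erythroid markers summed to 170 to 178 in tetraploid and 157 to 176 in diploid cells. Whether other cell types had a part in the differences of the members was not tested.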

How the data were processed

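RNA of 6 samples, 3 tetraploid and 3 diploid, was measured on Affymetrix arrays. The deposited values are intensities per probe set on a linear scale, processed by the authors with RMA, per the submitters' processing notes; RMA corrects background, equalises the arrays' distributions and summarises probes. Its version is not given in the sources used here. Equalised arrays carry no difference in total RNA per cell, so each difference is relative to the other transcripts.

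Intensities were converted to log2, with no pseudocount. The table has 22690 probe sets, 64 of them array controls that did not enter the fit. Of the others, 20380 carry 1 symbol in the platform annotation, 691 several and 1555 none; 20351 matched the RefSeq table of GRCm38.p6. All 22626 probe sets were fitted with limma 3.58.1 in R 4.3.3 (lmFit, eBayes, two-sided, Benjamini-Hochberg over all), with ploidy as the only factor; the fit was checked on simulated data. The median SE of a log2 difference was 0.10, and the number of arrays limits the precision.

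The members, the gene lists and the genes named from them (fixed names, plus the 3 nearest profiles of Uhrf1, Hells and Dnmt1) were chosen with earlier results of these data known. Of the fixed names, Uhrf2, Tet2, Tet3, Tdg, Suv39h1, Mat2a, Setd2 and H19 lacked a probe set with 1 symbol and were not analysed here. Alternatives covered the replicate block, dim probe sets, normalization, a pseudocount, variance moderation, array weights and leaving out each array.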

Additional observations from a re-analysis of the deposited data

How the results depend on the processing

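The 12 member differences were recomputed under 13 alternatives. The replicate block, the variance moderation and the loss of dim probe sets cannot move a difference, by their construction. Of the 120 values under the other 10 alternatives, 114 kept their sign and 0 moved by more than the spread between replicates. Leaving out 1 of 3 arrays cannot move a difference by that much, so for those alternatives the 0 carries no information. Uhrf1 (1415810_at) ranged from -1.67 to -1.34, Hells from -1.48 to -1.13 and Dnmt1 (1422946_a_at) from -0.51 to -0.27. The 6 values that changed sign belonged to 1 Dnmt3a and 2 Dnmt3b probe sets with small differences, so 5 to 7 member probe sets had a lower mean in tetraploid cells. The median of the G1/S list ran from -0.86 to -0.64. The count past an adjusted p of 0.05 stayed at 0 except in 2 settings. With the replicate number as a block it was 10, among them 1 Uhrf1 probe set and 4 genes of the G1/S list, and with 1 array left out it ranged from 0 to 1, the 1 being Hells without tetraploid replicate 1. Uhrf1 and Hells were chosen by their p-values on these arrays, so their passing is no test of them. The labels share replicate numbers between fractions, but deviations from the fraction means correlated by 0.44, -0.15 and -0.16 for numbers 1, 2 and 3, and 2 of 6 arrays correlated best with their own number. Across numbers, tetraploid 2 with diploid 3 gave 0.56 and tetraploid 3 with diploid 2 gave 0.24. The labels do not say what a number stands for, so the numbers were not taken as pairs, and whether the arrays pair in another way is not known. With 3 arrays a fraction, the 95% intervals of every Dnmt3a and Dnmt3b probe set include 0.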

Other observations

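Imprinted genes, whose expression from the maternal or paternal allele depends on DNA methylation, differed in both directions. Of 23 imprinted genes 21 were measured, with a median log2 difference, tetraploid minus diploid, of -0.04, and 0 passed the adjusted threshold by limma. The fetal growth factor gene Igf2 read 5.97, 5.81 and 6.00 in tetraploid cells, against 6.16, 6.32 and 6.40 in diploid cells, with no overlap and a difference of -0.37 ± 0.09 (SE). Its dimmer second probe set differed by -0.18. Peg3, a zinc finger gene expressed from the paternal allele, differed by -0.28 ± 0.13 (SE). Cdkn1c, an inhibitor of cyclin-dependent kinases, read 8.54, 8.52 and 8.29 in tetraploid cells, against 8.44, 8.02 and 7.95 in diploid cells, a difference of 0.31 ± 0.14 (SE). The others without overlap, named after their values were seen, were Slc22a18 at -0.25, Gnas at -0.06 and Igf2r at 0.18. In all, 3 of the 21 were lower and 1 higher without overlap, where 7.43% of all genes were lower and 4.37% higher. Nothing is read from these counts.

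Germline genes, whose promoters are methylated in body tissues, were mostly at the lower end of the array, with 8 of 12 measured genes among the dimmest 25% of probe sets. Their median difference was 0.05. Dazl, an RNA-binding protein of germ cells, was at 4.32 ± 0.06 in tetraploid and 4.50 ± 0.08 in diploid cells (SD, n = 3 each), and Ddx4 and Sycp3 were at 3.98 and 3.71 in tetraploid, against 3.90 and 3.64 in diploid cells. Sycp1 at -0.11 and Brdt at 0.28 were, with Dazl, the genes without overlap, and both were named after their values were seen. That is 2 lower and 1 higher of 12, where 7.43% of all genes were lower and 4.37% higher without overlap. Nothing is read from these counts, and Sycp1 and Dazl were dim. Brdt, with a mean log2 intensity of 6.48, was not among the dim genes.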
